A study of Mus musculus with 3 samples.

Results

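Genes that build the primary cilium and move proteins into it were compared between 3 mouse olfactory epithelium cell fractions, which differ in the brightness of a GFP reporter. The genes were chosen by name from the annotation of the array. They comprise the intraflagellar transport genes (symbols beginning with Ift and a digit), the Bardet-Biedl syndrome genes (Bbs and a digit), symbols beginning with Tctn or Nphp, and 20 further genes named singly. Of the 18193 genes with a platform symbol of their own, 43 belonged to this set. Arl6, Arl13b and Rpgrip1l, which are on the list of names, were not analysed here.

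All cells came from Tgn1-2G transgenic mice, male and female, aged 5 to 8 days after birth. As background, this transgene expresses GFP under control elements of Neurog1, a transcription factor of olfactory neuron progenitors, and all 3 fractions share it. GFP+++ held 1000000 strongly fluorescent cells and is described by the submitters as enriched in immature olfactory sensory neurons. GFP+ held 1300000 weakly fluorescent cells, described as slightly enriched in mature neurons. GFP- held 6800000 cells without fluorescence, described as of every cell type of the epithelium but with fewer immature neurons. Each fraction carries the number 32 in its labels, taken here as pooled mice, and it is not stated if the fractions share their mice. Each fraction was hybridised to 1 array, so no value has a replicate error, no test was possible, and the number of arrays limits the precision.

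A primary cilium is a microtubule-based projection of the cell surface, and the olfactory sensory neuron carries many modified ones on the knob of its dendrite, where odorant receptors and their signalling proteins sit. Trains of the IFT-B and IFT-A complexes carry cargo along the cilium, outward on kinesin-2 and back on dynein-2. The BBSome, an adaptor complex, links membrane proteins to these trains, and loss of its subunits in mice is known to impair the sense of smell. The transition zone at the base of the cilium forms a gate that selects what enters and leaves.

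Values are MAS5 signals, the array's brightness of a probe set in arbitrary units. Each gene was represented by its probe set with the highest mean signal, and levels of different genes were not compared because probe sets differ in how well they bind. Signals under the pooled median of 104 were raised to that floor before log2 folds were taken, and all 43 cilium genes lay above it on all 3 arrays. The arrays had median signals of 88.2 (GFP+++), 107 (GFP+) and 118 (GFP-), while the 2% trimmed mean was the same, so scaling by the median or by the trimmed mean gives different folds. Immature neuron markers such as Gap43, the growth cone protein, gave 11233 (GFP+++), 6006 (GFP+) and 6395 (GFP-). Omp, the olfactory marker protein of mature neurons, gave 5041 (GFP+++), 10615 (GFP+) and 7748 (GFP-). Both markers were above the floor in every fraction, with Gap43 highest in GFP+++ and Omp highest in GFP+. Of 12 immature markers, 11 were higher in GFP+++ than in GFP-, and Stmn1 was highest in GFP-. Of 12 mature markers, 9 were higher in GFP+ than in GFP-, while S100a5, Stoml3 and Cngb1 were highest in GFP-.

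Many ciliary genes are known to share the X-box, a promoter element bound by RFX transcription factors. Promoter windows from RefSeq (build GRCm38.p6), running from 250 bases before to 50 after each transcription start, were matched to 39 of the 43 cilium genes. The X-box was searched as the arms GTNNCC and GGNNAC with 2 bases between them, a pattern that reads the same on both strands. It was found at 11 of these 39 genes (28.2%), against 583 of 27025 genes with a window (2.16%). With 1 to 3 bases allowed between its arms, 13 of 39 and 1082 of 27025 genes held it (33.3% of the cilium genes). The shorter arm GTTGCC, or GGCAAC on the other strand, was present at 19 of 39 against 3821 of 27025 (48.7% against 14.1%), and it overlaps the longer patterns. The pattern was picked after other forms had been looked at, and a match describes letters, not a bound site. The 27025 genes were not limited to those measured on these arrays, while the 39 cilium genes all passed the signal floor, so the sets are unlike. Of the genes holding the full pattern, the sites of the 4 with the highest and the 3 with the lowest log2 fold of GFP+++ over GFP- are printed here in 30-base windows on the gene's strand, with the X-box in capitals.
Tctn1, chr5:122264411-122264440, strand -: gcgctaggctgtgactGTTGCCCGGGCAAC
Bbs4, chr9:59353464-59353493, strand -: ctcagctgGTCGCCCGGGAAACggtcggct
Ift22, chr5:136908079-136908108, strand +: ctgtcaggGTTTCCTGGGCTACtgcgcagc
Ift22, chr5:136908109-136908138, strand +: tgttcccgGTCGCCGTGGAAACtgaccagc
Ift57, chr16:49699199-49699228, strand +: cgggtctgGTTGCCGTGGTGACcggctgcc
Bbs7, chr3:36613489-36613518, strand -: gcgccccgGTTGCCTTGGAAACcggccagc
Tctn2, chr5:124598679-124598708, strand +: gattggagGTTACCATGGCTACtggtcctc
Bbs1, chr19:4906605-4906634, strand -: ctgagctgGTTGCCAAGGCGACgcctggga

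The centres of the Ift22 sites lay 56 and 26 bases before the start, and those of Ift57, Bbs7 and Tctn2 80, 114 and 55 bases before it. The Bbs1, Bbs4 and Tctn1 sites were centred 9, 31 and 44 bases after it. Ahi1, Mks1, Nphp4 and Wdr19 were the other holders of the pattern. Genes with and without the pattern overlapped widely in their folds. For GFP+++ over GFP- the median log2 fold was 0.32 for the 11 with it (-0.03 to 0.77) and 0.18 for the 28 without it (-0.59 to 0.71). For GFP+ over GFP- the medians were 0.30 (0.13 to 0.67) and 0.27 (-0.47 to 0.85).

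Most cilium genes gave somewhat more signal in GFP+++ than in GFP-, by less than 2-fold. The strongest folds belonged to Tctn1 and B9d1 of the transition zone, Bbs4 and Ttc8 of the BBSome, and Ift22 and Ift27 of IFT-B. Mkks and Cc2d2a stood on the other side. Of the 43 genes, 36 lay above 0 on the log2 scale (83.7%, against 50.7% of 12235 genes measured), 6 lay below it, and Ift52 had equal signals (within a log2 difference of 0.0001). Past 2-fold, 0 of 43 were higher (background 1.92%) and 0 were lower (background 12.4%). At 1.5-fold, 8 were higher (background 9.31%) and 1 was lower (background 20.5%). The median log2 fold was 0.25, with quartiles of 0.10 and 0.45 and a range of -0.59 to 0.77, against 0.01 for all genes. Since a fraction is a mixture, a larger share of ciliated cells and more RNA of a gene per cell cannot be told apart.

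With each array scaled to its median, the median of all genes moved by 0.41 and that of the cilium genes to 0.67. Their lead over all genes was then 0.25, against 0.24 with the trimmed mean and 0.21 with quantile normalization. Of all genes at least 2-fold apart, 86.6% were lower in GFP+++ with the trimmed mean and 48.1% with median scaling. Trimmed mean and median scaling each multiply an array by 1 factor, so they move cilium genes and all genes nearly alike. The like lead under these 2 is therefore given by their construction, and only quantile normalization could change it much. The count of cilium genes past 2-fold higher was 0 with the trimmed mean, 8 with median scaling and 0 with quantile normalization. With median scaling 1129 of 12184 genes in all were past 2-fold higher. Every cilium gene passed the floor on all arrays, as did 10458 genes in all, and over those alone the lead was 0.18. Of those 10458, 56.9% lay above 0 in GFP+++ over GFP- with the trimmed mean. Past 2-fold, 216 of them were higher and 902 lower, and past 1.5-fold 1084 were higher and 1575 lower.

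GFP+ was above GFP- for nearly all cilium genes, again by less than 2-fold, with Ttc8, Bbs4, Tulp3, Ift140 and Ift122 in front. For Bbs4 and Tulp3 this rests on the brightest probe set: with the median over probe sets their log2 folds were 0.19 and 0.40, against 0.67 each. The other way round, dimmer probe sets of Wdr19, Wdr35 and Lztfl1 gave 0.81, 0.75 and 0.74. The probe sets used for these genes gave 0.26, 0.23 and 0.28. Cep290, Ofd1, Ttc21b and Arl3 were the 4 below 0, and of these Arl3 turned with both other scalings, and Ttc21b with median scaling. Above 0 lay 39 of 43 (90.7%, background 48.8%, or 54.0% over the 10458 genes above the floor on all arrays). Past 2-fold, 0 were higher (background 0.607%) and 0 lower (background 0.804%). At 1.5-fold, 5 were higher (background 4.67%) and 0 lower (background 7.13%). The median log2 fold was 0.30, with quartiles of 0.22 and 0.42, against -0.01 for all genes. The lead over all genes was 0.30 with the trimmed mean and with median scaling, which agree by construction, and 0.27 with quantile normalization. The median of all genes moved by 0.14 with median scaling, and the lower share of the genes past 2-fold was 57.0% with the trimmed mean, where 74 genes were higher and 98 lower, against 131 higher and 46 lower with median scaling. Both comparisons use the same GFP- array, so they are not independent of each other.

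GFP+++ and GFP+ differed little for the group as a whole. The median log2 fold of GFP+++ over GFP+ was -0.06 with 17 genes above 0 (39.5%, background 47.9%, or 52.0% over the 10458 genes above the floor on all arrays) and 26 below. It turned to 0.22 with median scaling, which also moved the median of all genes by 0.27, so that the distance to all genes was -0.04 with the trimmed mean, -0.03 with median scaling and -0.06 with quantile normalization. Past 2-fold there was no cilium gene in either direction (0 of 43 each, background 0.985% higher and 9.34% lower). The lower share of all genes past 2-fold was 90.5% with the trimmed mean and 64.8% with median scaling. At 1.5-fold, Tctn1 was higher (background 6.39%), and Dync2h1, Mkks and Cc2d2a were lower (background 18.2%).

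**Figure D1:**
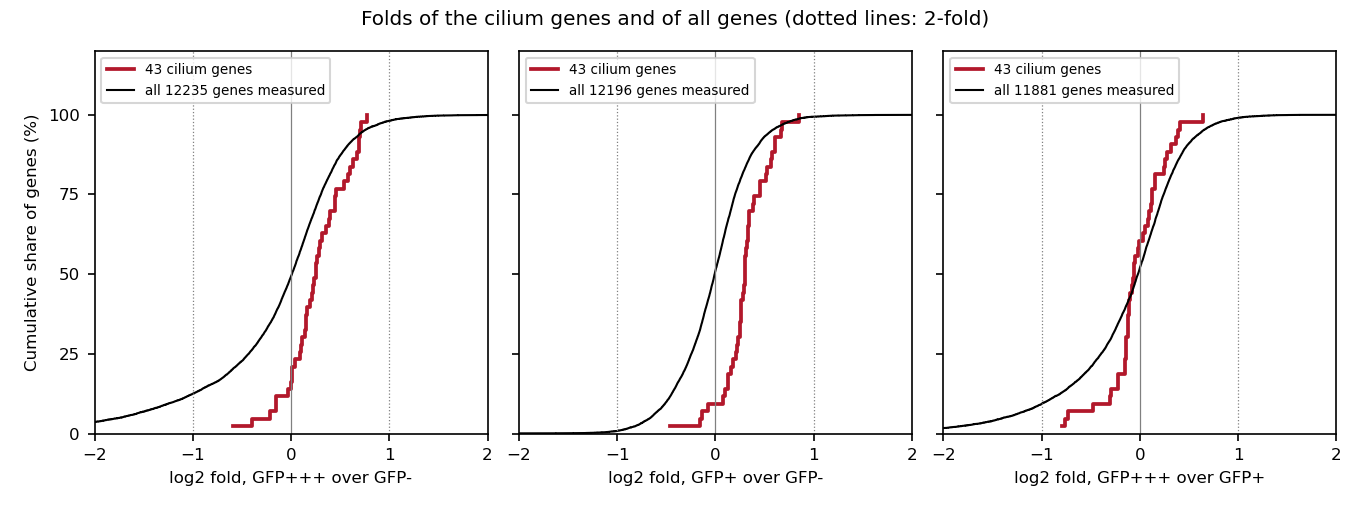
Cumulative share of genes (vertical, %) by log2 fold (horizontal) for GFP+++ over GFP-, GFP+ over GFP- and GFP+++ over GFP+, with the 43 cilium genes in red and all genes measured in black. Dotted lines mark 2-fold. The red line lies right of the black one over most of its length in both comparisons with GFP-, with medians of 0.25 and 0.30. At the upper end the black line reaches further right, past 2-fold. In GFP+++ over GFP+ the red line crosses the black one near 0. The red line stays within the dotted lines in all 3.

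How far single genes can be trusted was read from probe sets of the same gene. Wherever a gene had more than 1 probe set over the floor, the log2 folds of these could be compared. Their pooled SD was 0.30 for GFP+++ over GFP- (4633 genes), 0.24 for GFP+ over GFP- (4979 genes) and 0.30 for GFP+++ over GFP+ (4640 genes). The SD of the log2 folds among the 43 cilium genes was 0.31, 0.24 and 0.30 for the same comparisons, so these genes differed among themselves about as much as probe sets of one and the same gene do. Most orders between single members are therefore within the spread between probe sets of a gene. That spread takes in dimmer probe sets than those used here, so it is not the measurement error of these members. It also leaves out the spread between animals and sorts.

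The 12 IFT-B genes encode the complex that carries cargo outward and is needed to build a cilium. Against GFP-, 11 of them were higher in GFP+++ (median log2 fold 0.28) and 12 of 12 in GFP+ (median 0.30). Ift22, a small GTPase of the complex, had a signal of 2390.3 (GFP+++), 1828 (GFP+) and 1485 (GFP-). That is the order of GFP brightness, at log2 folds of 0.69 and 0.30 over GFP-. Ift27, a GTPase that works with the BBSome in removing cargo from the cilium, gave 1327 (GFP+++), 1193 (GFP+) and 831 (GFP-). Its probe set carries the suffix _x_at, which marks possible binding to other transcripts, and a probe set without it gave a log2 fold of GFP+++ over GFP- of 0.36 in place of 0.67. That probe set had 683 (GFP+++), 715 (GFP+) and 530.3 (GFP-), with GFP+ highest. Ift57, Ift172, Ift46 and Ift88 followed the same order as Ift22, with log2 folds of GFP+++ over GFP- between 0.30 and 0.54. Ift88 is the subunit whose loss is classically used to remove cilia in mice.

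The other 6 IFT-B genes were highest in GFP+ instead. Ift81 and Ift74, which together bind tubulin, were among them. Ift81 gave 4323 (GFP+++), 4713 (GFP+) and 3923 (GFP-). Ift74 gave 2399.6 (GFP+++), 2611 (GFP+) and 1995 (GFP-). In both the GFP+++ signal lay between the others, with log2 folds over GFP- of 0.14 and 0.27. Ift80, Ift20, which also acts at the Golgi, and Traf3ip1 had the same order, and Ift52 had 1222 in both GFP+++ and GFP- and 1289 in GFP+. The log2 folds of GFP+++ over GFP+ ranged from -0.29 for Ift80 to 0.39 for Ift22 within IFT-B, and the even split of 6 genes highest in GFP+++ and 6 in GFP+ was the same with quantile normalization but 11 to 1 with median scaling.

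The 6 IFT-A genes encode the complex of the return journey, which also brings membrane proteins into the cilium. In GFP+++ all 6 lay above GFP- (median log2 fold 0.39), although Wdr35 and Ttc21b did so by 0.01 each and Wdr35 turned with quantile normalization. Ift43 gave 6157 (GFP+++), 4641 (GFP+) and 3976 (GFP-). Its log2 fold of GFP+++ over GFP+ (0.41) was higher than that of any other IFT gene with the trimmed mean and with median scaling, but with quantile normalization it was 0.27, below Ift22 (0.37) and Ttc21b (0.33). Ift140 gave 2133 (GFP+++), 2369 (GFP+) and 1556 (GFP-), and Ift122 1491, 1510.0 and 995 in the same fractions. These 2 subunits stood at nearly the same level in both GFP positive fractions and lower in GFP-. Ttc21b had the lowest signal in GFP+, with 331 (GFP+++), 297 (GFP+) and 327 (GFP-).

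Dynein-2, the motor that pulls IFT trains back, was represented by its heavy chain Dync2h1 and its light intermediate chain Dync2li1. Dync2h1 gave 1094 (GFP+++), 1890.1 (GFP+) and 1273 (GFP-). GFP+ stood 1.48-fold above GFP-, while GFP+++ was 1.73-fold below GFP+, the lowest log2 fold of GFP+++ over GFP+ among the 43 genes. Dync2li1 gave 1776 (GFP+++), 1854 (GFP+) and 1488 (GFP-), so both GFP positive fractions lay above GFP- there. The log2 fold of Dync2h1 for GFP+++ over GFP- was -0.22 and turned to 0.20 with median scaling.

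BBSome subunits were the set with the highest median in GFP+ over GFP- among the sets of 3 or more genes, at a log2 fold of 0.45, with 7 of 7 above 0. In GFP+++ over GFP- the median was 0.24 and 6 of 7 were above 0. Ttc8 gave 2341 (GFP+++), 2611 (GFP+) and 1446 (GFP-). Bbs4, the subunit that also binds centriolar satellites, gave 2289.7 (GFP+++), 2239 (GFP+) and 1403 (GFP-). For these probe sets the GFP positive fractions lay close together, 1.62-fold and 1.81-fold above GFP- for Ttc8 and 1.63-fold and 1.60-fold for Bbs4 (GFP+++ and GFP+ in that order). A Bbs4 probe set of similar brightness gave 2259 (GFP+++), 1737 (GFP+) and 1458 (GFP-), with GFP+ nearer to GFP-. Bbs1, which holds the site that recruits the complex to membranes, gave 1229 (GFP+++), 1711 (GFP+) and 1252 (GFP-). There GFP+ stood apart from the others, which had nearly equal signals, and the small log2 fold of GFP+++ over GFP- (-0.03) turned to 0.39 with median scaling. Bbs2, Bbs5, Bbs7 and Bbs9 had log2 folds of GFP+++ over GFP- between 0.16 and 0.45 and of GFP+ over GFP- between 0.25 and 0.56. In 6 of the 7 subunits GFP+ was the highest fraction and in Bbs4 it was GFP+++. With quantile normalization these counts were 5 and 2, and with median scaling 1 and 6.

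Mkks, Bbs10 and Bbs12 resemble chaperonins and help to assemble the BBSome. Mkks gave 331 (GFP+++), 562 (GFP+) and 497 (GFP-). GFP+++ stood at log2 folds of -0.59 against GFP- and -0.76 against GFP+, and no other of the 43 genes was as low against GFP-. Its second probe set gave a log2 fold of -0.52 for GFP+++ over GFP- but -0.31 for GFP+ over GFP-, where the brighter one gave 0.18. Bbs10 gave 263 (GFP+++), 274 (GFP+) and 200.4 (GFP-). Unlike Mkks, Bbs10 and Bbs12 had log2 folds of GFP+++ over GFP- above 0, at 0.39 and 0.15.

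Tulp3, an adaptor that hands receptors to IFT-A, gave 1485 (GFP+++), 1562 (GFP+) and 981 (GFP-). With this probe set both GFP positive fractions were about equally far above GFP-. A dimmer Tulp3 probe set gave log2 folds over GFP- of 0.43 in GFP+++ and 0.13 in GFP+. Lztfl1, which restrains BBSome traffic, gave 2199.5 (GFP+++), 2399.9 (GFP+) and 1983 (GFP-). Its brightest probe set had a log2 fold of GFP+++ over GFP- of 0.15, below the 0.43, 0.64 and 0.58 of its other probe sets that passed the floor on all arrays. Arl3, the GTPase that releases lipid-modified proteins into the cilium, gave 9458 (GFP+++), 8762 (GFP+) and 9214 (GFP-). The fractions were nearly level for Arl3.

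The MKS group of 8 transition zone genes had a median log2 fold of 0.17 for GFP+++ over GFP-. The SD over its genes was 0.42, against 0.22 over the IFT-B genes and 0.27 over the IFT-A genes. For GFP+ over GFP- the SD was 0.27, against 0.14 over the IFT-B genes and 0.28 over the IFT-A genes. Tctn1, a tectonic, gave 1104 (GFP+++), 709 (GFP+) and 648 (GFP-). GFP+++ stood 1.70-fold above GFP- and 1.56-fold above GFP+, the top value of the 43 genes in both. B9d1, a B9 domain protein of the MKS complex, gave 2677 (GFP+++), 2073 (GFP+) and 1637 (GFP-). Ahi1, whose product is known as jouberin, gave 2404 (GFP+++), 2210.2 (GFP+) and 1757 (GFP-). These 3 genes and Mks1 were highest in GFP+++ and lowest in GFP-.

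Other members of the MKS group ran another way. Cc2d2a, needed for the gate at the ciliary base, gave 519 (GFP+++), 861 (GFP+) and 682 (GFP-). GFP+++ was lowest here, at log2 folds of -0.40 against GFP- and -0.73 against GFP+. Cep290, a long protein that links the microtubules of the base to the membrane, gave 886 (GFP+++), 712 (GFP+) and 985 (GFP-). It was the only cilium gene of the 43 whose signal was highest in GFP-, also with quantile normalization, whereas 0 genes were with median scaling. Tctn3 gave 785 (GFP+++), 973 (GFP+) and 871 (GFP-), so the tectonics Tctn1 and Tctn3 differed in order, and Tctn2 had a log2 fold of GFP+++ over GFP- of 0.09. The values below 0 of Cc2d2a, Cep290 and Tctn3 for GFP+++ over GFP- turned to 0.02, 0.26 and 0.27 with median scaling.

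Nphp4, a protein of the nephronophthisis module of the gate, gave 585 (GFP+++), 587 (GFP+) and 481 (GFP-). The signals of both GFP positive fractions were all but equal. Ofd1, which caps the distal end of the centriole from which the cilium grows, gave 429 (GFP+++), 355 (GFP+) and 397 (GFP-). GFP+++ was highest and GFP+ lowest, with log2 folds against GFP- of 0.11 and -0.16.

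**Figure D2:**
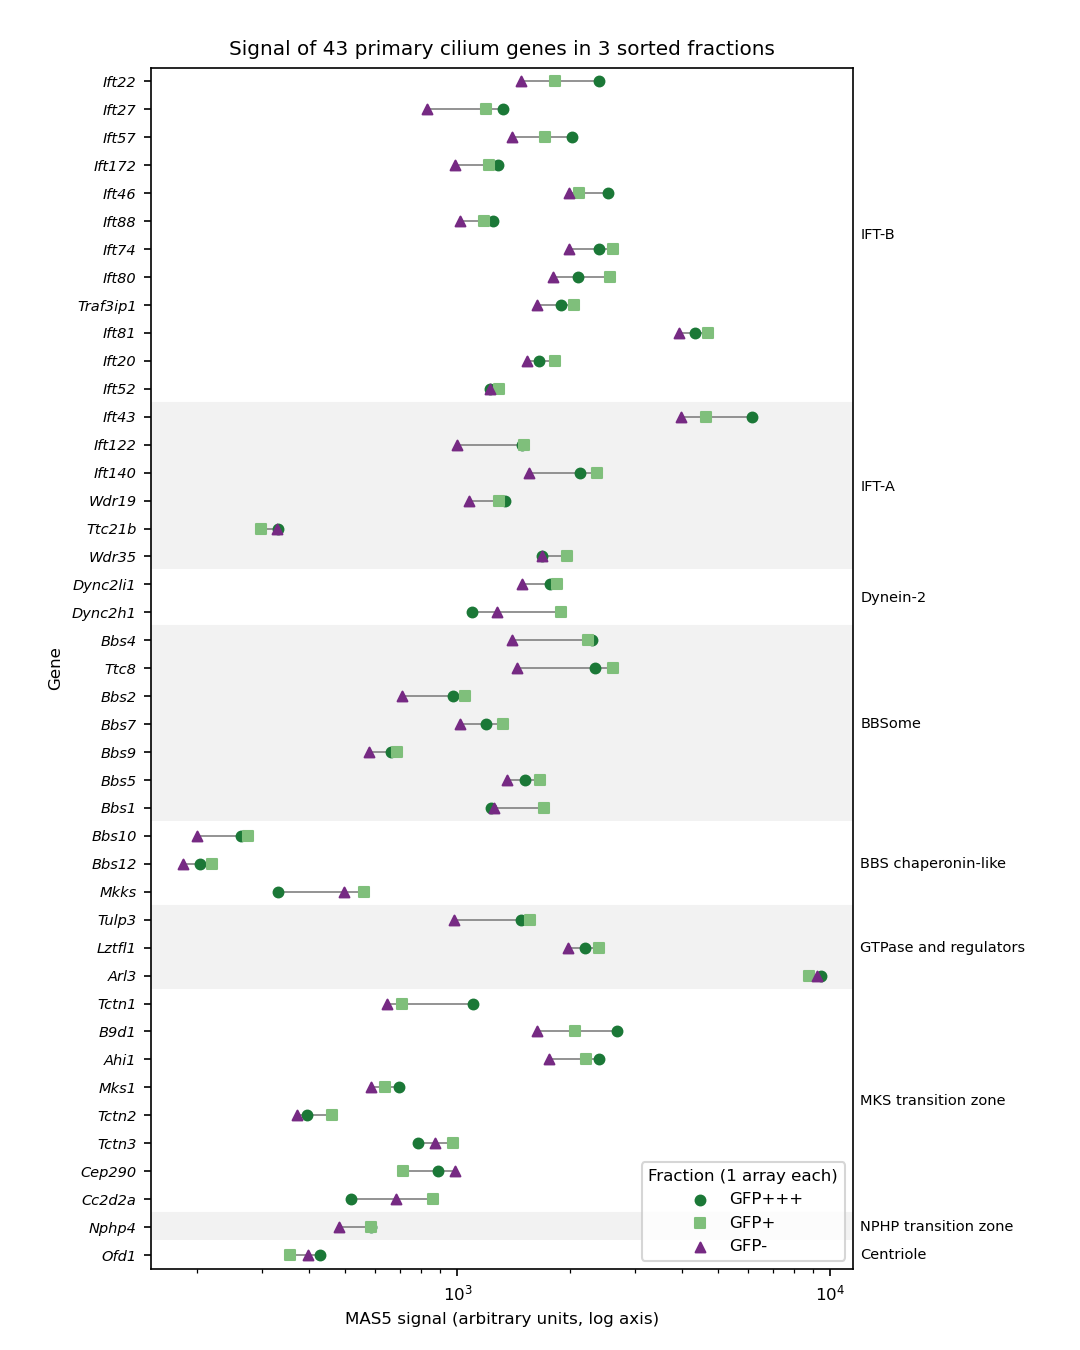
MAS5 signal (horizontal, arbitrary units, log axis) of the 43 cilium genes (rows, grouped by complex), with 1 point for each of GFP+++, GFP+ and GFP- and a grey line spanning them. There are no error bars because each fraction had 1 array. GFP- is the lowest point for most genes, and Mkks, Cc2d2a, Dync2h1 and Cep290 are among the exceptions.

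Across the 43 genes, the highest signal was in GFP+++ for 16, in GFP+ for 26 and in GFP- for 1. Over the 10458 genes above the floor on all arrays the counts were 4595, 2794 and 3069, so that GFP+ was highest for 60.5% of the cilium genes and 26.7% of those genes. With quantile normalization GFP+ was highest for 23 cilium genes (53.5%, against 25.1%), and with median scaling for 6, against 1701 of the 10458. Which GFP positive fraction was most often highest thus depended on the scaling. GFP- was highest for 1 cilium gene with the trimmed mean, 1 with quantile normalization and 0 with median scaling. Over the 10458 genes GFP- was highest for 29.3% with the trimmed mean, 27.6% with quantile normalization and 13.2% with median scaling.

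Further probe sets gave a check on the same arrays. Of the 43 genes, 17 had several probe sets, and 18 of their 26 other probe sets passed the floor on all arrays, from 13 genes. For GFP+ over GFP- 16 of the 18 had the sign of the probe set used, and for GFP+++ over GFP- 14 of 18. The opposite ones in GFP+++ over GFP- belonged to Ahi1, Bbs4, Ift80 and Tctn3, and those in GFP+ over GFP- to Ift27 and Mkks. The same share over all genes with several probe sets is not given here, so these counts have no background. For Bbs4, 3 probe sets gave log2 folds of 0.71, 0.63 and 0.51, and a dimmer one -0.04. The dimmer Ahi1 probe set had -0.21, against 0.45 for the one used. In GFP+++ over GFP+ 11 of 18 shared the sign, so that comparison was less settled at the level of single genes.

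**Figure D3:**
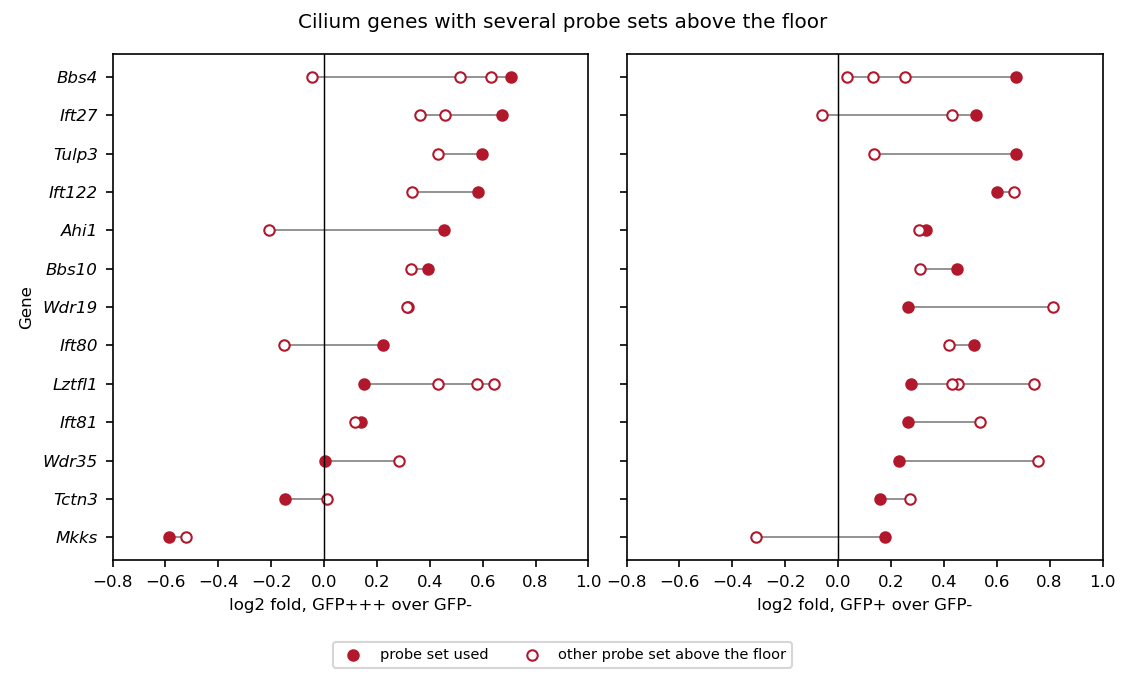
Log2 folds (horizontal) of GFP+++ over GFP- and of GFP+ over GFP- for the 13 cilium genes (rows) that had other probe sets over the floor on all arrays. Filled points are the probe sets used and open points the others. For GFP+ over GFP- 16 of 18 open points share the side of their filled point, and Bbs4, Ahi1, Ift80 and Tctn3 have an open point on the other side for GFP+++ over GFP-.

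Other cilium genes, taken from lists of IFT and motor subunits, BBSome and cargo factors, transition zone, basal body and ciliary transcription factors, were set beside them. The last list also held Rfx5, Rfxank and Rfxap, which are not known as ciliary factors. Of 80 genes measured over all these lists, 59 lay above 0 in GFP+++ over GFP- (background 50.7%), with a median log2 fold of 0.18. By list, the medians were 0.30 for cargo, 0.29 for transition zone, 0.19 for IFT and motor, 0.12 for basal body genes and -0.15 for transcription factors. Past 2-fold, 0 were higher (background 1.92%) and 4 lower (Poc1a, Cep97, Rfx4 and Glis3, background 12.4%). With median scaling Cep97 and Rfx4 were at -0.64 each, and with quantile normalization at -0.89 and -0.73, so only Poc1a and Glis3 of these passed 2-fold under all 3 scalings. For GFP+ over GFP-, 53 of 79 lay above 0 (background 48.8%, median 0.14), with 0 higher and Glis3 lower past 2-fold (background 0.607% and 0.804%). The IFT and motor list had the highest median of these lists there, at 0.34. Among IFT and motor genes, Hspb11, the partner of Ift27, gave 2705 (GFP+++), 2109.5 (GFP+) and 1581 (GFP-). GFP+++ was highest and GFP- lowest. The kinesin-2 genes Kif3a and Kif3c had log2 folds of GFP+++ over GFP- of 0.46 and 0.56, while Kif3b, Kifap3 and Kif17 had 0.05, 0.14 and 0.07. In the same comparison Wdr34 and Dynlrb2 of dynein-2 had 0.53 and 0.55. The low end of that list was held by the dynein-2 genes Wdr60 (-0.15) and Tctex1d2 (-0.01), which turned to 0.26 and 0.41 with median scaling, and Wdr60 to 0.06 with quantile normalization.

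In the transition zone list Tmem17, a membrane protein of the MKS module, gave 924 (GFP+++), 699 (GFP+) and 470.5 (GFP-), and Cby1, a basal body protein that helps vesicles dock, gave 3991 (GFP+++), 2436 (GFP+) and 2107 (GFP-). Their folds of GFP+++ over GFP- were 1.96 and 1.89. In the cargo list Tub, a relative of Tulp3, had a log2 fold of 0.76 and Rabl2, a GTPase linked to IFT, 0.61. The lowest there were Unc119b (-0.35), a carrier of lipid-modified cargo, and Inpp5e (-0.27), a ciliary lipid phosphatase, which turned to 0.07 and 0.14 with median scaling. The lowest of the transition zone list were Rpgrip1 (-0.51) and Dzip1, which was under the floor in GFP+++ (21.5) and GFP+ (76.9) and above it in GFP- (141).

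Of the 18 basal body genes, 2 were past 2-fold lower in GFP+++ than in GFP-, a share near the background of 12.4%. Poc1a, a centriole protein, gave 142 (GFP+++), 241 (GFP+) and 397 (GFP-). Cep97, which caps the centriole and keeps a cilium from forming, gave 274 (GFP+++), 447 (GFP+) and 570.4 (GFP-). Both were lowest in GFP+++ and highest in GFP-, at 2.79-fold and 2.08-fold below GFP-. At the other end of the list, Cep83 had a log2 fold of 0.62 and Cep131 0.55.

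Of the ciliary transcription factors, Rfx3 had 3937 (GFP+++), 2815 (GFP+) and 3611 (GFP-), and Rfx1 583, 525 and 463 in the same fractions. Foxj1, the main factor of motile cilia, gave 367 (GFP+++), 617 (GFP+) and 390.3 (GFP-), with GFP+ on top. Rfx4 in GFP+++ stood 2.08-fold below GFP- and 2.99-fold below GFP+. Glis3, a zinc finger factor found in cilia, was under the floor in GFP+++ (44.0), against 155 in GFP+ and 349.6 in GFP-. GFP+++ was thus below GFP- by at least 3.35-fold. The median of the 10 factors was -0.15 for GFP+++ over GFP- and turned to 0.26 with arrays scaled to the median and to 0.01 with quantile normalization. These 10 include Rfx5, Rfxank and Rfxap, which are not known as ciliary factors. With the trimmed mean they had log2 folds of GFP+++ over GFP- of -0.61, -0.21 and 0.06.

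Several cell types of the mucosa carry cilia or differ in ciliation, and their markers differed between the fractions too. Multiciliated cells of the respiratory lining, which use the same transport genes, had 28 marker genes with a row and a summed signal of 19647 (GFP+++), 22011 (GFP+) and 15525 (GFP-). Of these markers 17 (GFP+++), 21 (GFP+) and 20 (GFP-) passed the floor, and 7 lay under it on all 3 arrays, among them Dnah5 and Hydin of the motile axoneme. The median log2 fold of those measured was 0.06 for GFP+++ over GFP-, with 11 above 0 and 9 below. For GFP+ over GFP- it was 0.37, with 18 above 0 and 3 below. Mature neuron markers had a summed signal of 62824 (GFP+++), 92747 (GFP+) and 83339 (GFP-), with medians of -0.35 and 0.29 in the same comparisons. The first of these turned to 0.07 with median scaling. Immature neuron markers summed to 106388 (GFP+++), 70865 (GFP+) and 86214 (GFP-), with medians of 0.46 and -0.20. Their sum was thus lowest in GFP+, not in GFP-. Of these 12 markers, 11 were lower in GFP+ than in GFP- (10 with median scaling and 8 with quantile normalization). The cilium genes were thus above 0 both in the comparison where immature markers were and in that where mature markers were.

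Summed markers of supporting, dividing, immune, fibroblast, gland and basal cells were lower in both GFP positive fractions than in GFP-. Sustentacular markers, of the supporting cells, had medians of -1.33 in GFP+++ over GFP- and -0.47 in GFP+ over GFP-. Markers of dividing cells, which take their cilium apart before mitosis, had -1.54 and -0.38. Immune cell markers summed to 852 (GFP+++), 20900.2 (GFP+) and 26058 (GFP-), with 4, 12 and 12 of 12 above the floor. Fibroblast markers summed to 2511, 26304 and 42848 in the same fractions (7, 8 and 8 of 8 above the floor), and gland markers to 7275, 26264 and 42125 (6, 7 and 7 of 7). Horizontal basal cell markers summed to 327, 1496 and 2403, with 1, 5 and 5 of 5 above the floor. The part of these cell types in the folds of the cilium genes was not tested.

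**Figure D4:**
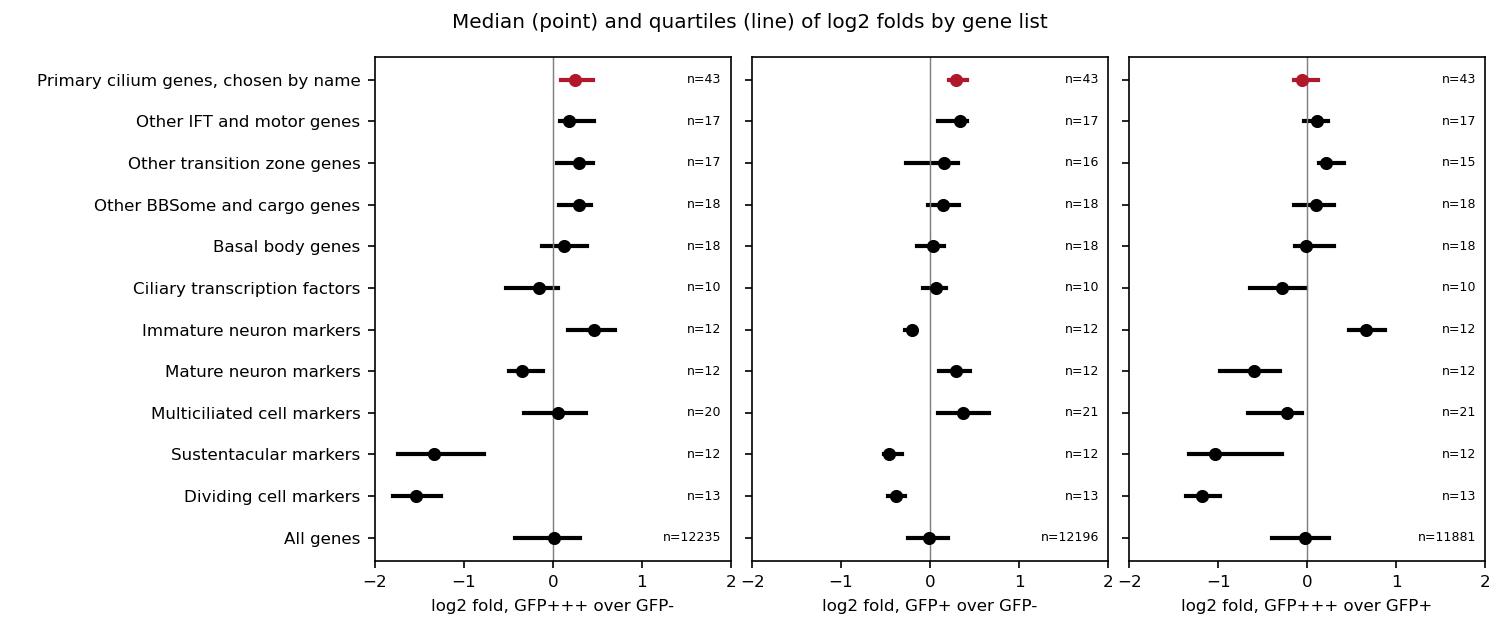
Median (point) and quartiles (line) of log2 folds for 12 gene lists (rows) in GFP+++ over GFP-, GFP+ over GFP- and GFP+++ over GFP+, with the number of measured genes at the right of each row. The cilium genes (red) lie at 0.25 and 0.30 over GFP-, while immature and mature neuron markers lie on opposite sides of 0 and markers of supporting and dividing cells lie below it.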

How the data were processed

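The study measured RNA of 3 sorted cell fractions on 1 array each. The deposited values are linear signal intensities. The submitters' processing notes name MAS5 as the authors' tool, and its version is not given in the sources used here. Their 2% trimmed mean is 500.0 on each array. MAS5 scales an array by 1 factor, and detection calls were not used, so dim probe sets keep positive values. Gene names came from the platform annotation (34945 of 45101 probe sets had 1 symbol, controls left out), and all 43 symbols were unchanged in RefSeq.

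For each array the 2% trimmed mean was set equal, a gene was its brightest probe set, signals under the pooled median of 104 were raised to it, and log2 folds were taken with Python 3.11.15, numpy 2.4.6 and pandas 2.3.3. Genes over the floor on at least 1 of the arrays compared counted as measured. With 1 array a group no test or p-value was possible. The steps were tested on simulated arrays of like signal, with known folds given to genes well above the floor and shared by their probe sets. That test does not cover unlike array medians, dim signals or probe sets that differ in their true fold. The genes and lists were chosen with earlier results of these data known. Full values are given for 25 cilium genes by a rule: per direction the 6 most extreme log2 folds of GFP+++ over GFP- and the 4 of each other comparison, and the 2 brightest genes of each complex. For other cilium lists the 2 highest and 2 lowest folds are given. Ift52 and Ift122 are given with full values outside the rule for the 25 genes. Further genes named were chosen after their values were seen.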

Additional observations from a re-analysis of the deposited data

How the results depend on the processing

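Scaling, the floor, the probe set of a gene and the fold that counts were each varied. With arrays scaled to a common median, the median log2 fold of the cilium genes for GFP+++ over GFP- was 0.67 and 8 of 43 genes were at least 2-fold higher, against 1129 of 12184 genes in all, by the construction of that scaling, which moved all genes. These were B9d1, Bbs4, Ift22, Ift27, Ift43, Tctn1, Ttc8 and Tulp3. With a fold of 1.5 in place of 2, the counts were 8 higher and 1 lower for GFP+++ over GFP-, 5 higher for GFP+ over GFP-, and 1 higher and 3 lower for GFP+++ over GFP+. The distance of the cilium genes' median to that of all genes stayed between 0.18 and 0.34 for GFP+++ over GFP-, between 0.26 and 0.35 for GFP+ over GFP- and between -0.08 and -0.01 for GFP+++ over GFP+ over the settings tried. These include a floor at the 65th percentile of the signals, which left 41 of the 43 genes, no floor, the median over probe sets, no probe sets with the suffixes _x_at and _s_at, and, chosen after seeing the data, a background of genes above the floor on all 3 arrays. No paired analysis was possible because each fraction had 1 array. Detection calls and replicate arrays were not used here, so a difference of under about 0.3 in a log2 fold is within the spread between probe sets of a gene.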
